A study of Homo sapiens with 8 samples.

Results

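The DNA replication and mitosis genes, 40 in all, were followed in RNA of BEAS-2B cells, an immortalised human bronchial epithelial line, after exposure to formaldehyde vapour. They were chosen by name, as 20 genes of DNA replication and 20 genes of mitosis, and gene symbols were matched to gene identifiers through the human gene annotation. All 40 were among the 18242 genes, of 58735 identifiers in the files, that passed the count filter. The cells were grown on collagen-coated inserts at an air–liquid interface and received clean air (CA, 0 ppm) or air with 1 ppm formaldehyde (FA) for 2 h and were collected after a further 6 h. From each exposure, RNA depleted of ribosomal RNA was sequenced both directly (input) and as the fraction bound by an antibody to 8-oxoguanine (8-oxoG), the oxidised form of guanine (pull-down). The 8 libraries fell into 4 groups of 2, called CA input, FA input, CA pull-down and FA pull-down. The methods call the duplicates biological, the cells are 1 established line, and p-values measure the spread between these samples.

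Replication genes are made under the control of E2F factors as cells pass from G1 into S phase. The MCM2 to MCM7 ring unwinds DNA, the ORC proteins with CDC6 and CDT1 load it at origins, and PCNA is the sliding clamp of the polymerases. Mitosis genes follow later, in G2 and M phase, under the DREAM and B-MYB–FOXM1 complexes that act at CHR elements. Their promoters often hold CCAAT elements too. CCNB1 and CDK1 form the kinase that starts mitosis, and CDC20 and UBE2C work with the anaphase-promoting complex that ends it. The comparison of FA input with CA input asks whether the balance of these programmes shifted, and the comparison of pull-down with input asks how the 8-oxoG antibody treated their transcripts.

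The letters of these elements differed in part between the start regions of the gene groups, and 4 promoters that hold them are shown as examples. Each stretch runs from 150 bases before to 30 bases after the annotated start (RefSeq, GRCh38.p14), 5′ to 3′ on the strand of the gene, with E2F letters (TTTCGCGC, TTTGGCGC), CCAAT and the CHR (TTTGAA) in capitals, or their reverse complements. MCM3 lies at chr6:52284713-52284892 on the minus strand, CDC6 at chr17:40287729-40287908, CCNB2 at chr15:59104996-59105175 and PLK1 at chr16:23678739-23678918, these 3 on the plus strand.
MCM3: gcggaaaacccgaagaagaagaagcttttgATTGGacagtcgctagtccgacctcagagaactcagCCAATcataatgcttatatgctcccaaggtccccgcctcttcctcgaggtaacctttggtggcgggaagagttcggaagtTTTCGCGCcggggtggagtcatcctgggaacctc
CDC6: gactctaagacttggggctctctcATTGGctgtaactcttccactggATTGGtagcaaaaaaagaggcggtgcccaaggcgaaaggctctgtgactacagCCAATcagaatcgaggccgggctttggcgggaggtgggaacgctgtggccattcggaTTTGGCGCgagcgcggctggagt
CCNB2: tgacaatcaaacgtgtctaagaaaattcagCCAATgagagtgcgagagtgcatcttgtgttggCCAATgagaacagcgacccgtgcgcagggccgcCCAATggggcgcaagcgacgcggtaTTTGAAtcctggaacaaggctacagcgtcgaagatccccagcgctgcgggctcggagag
PLK1: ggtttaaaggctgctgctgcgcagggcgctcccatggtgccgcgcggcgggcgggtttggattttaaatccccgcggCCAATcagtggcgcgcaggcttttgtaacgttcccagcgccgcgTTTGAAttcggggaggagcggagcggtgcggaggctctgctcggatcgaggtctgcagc
The MCM3 and CDC6 stretches hold an E2F motif and CCAAT, whereas those of CCNB2 and PLK1 hold the CHR downstream of CCAAT. In windows of 250 bases before to 50 after the start, read on both strands, promoters were found for 34 of the 40 members, 17 in each group. AURKA, CCNE2, MCM4, MCM5, TPX2 and UBE2C had no entry. The CHR letters were present in 11 of 17 mitosis promoters (64.7%) and 1 of 17 replication promoters (5.88%), against 18.2% of 27305 genes with a promoter. CCAAT was present in 15 mitosis promoters (88.2%) and 13 replication promoters (76.5%), against 39.7% of all. Either E2F form was present in 6 replication promoters (35.3%; CDC6, E2F1, MCM2, MCM3, MCM6 and MCM7) and 2 mitosis promoters (11.8%), against 1.4% of all. A letter match is a description of the window and not a measured binding site.

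The inputs held 26152651 to 45144392 expected counts and the pull-downs 16883500 to 23658012. Libraries of the same group correlated at 0.983 to 0.989 over 4 pairs (log2 values across genes, which are not independent), and libraries of different groups at 0.976 to 0.991 over 24 pairs. Markers of bronchial epithelium were present for 10 of 10 genes (summed 1002 to 1245 TPM in inputs, 2264 to 2921 in pull-downs). Summed markers of other cell types were low in inputs, at 1.43 to 2.30 TPM for fibroblast (5 of 8 genes tested), 0.26 to 0.36 for endothelium (4 of 6) and 2.45 to 3.29 for immune cells (2 of 7). In pull-downs these sums were 2.76 to 3.62, 0.57 to 0.90 and 5.44 to 6.32 TPM, and 0 markers of any list were at 0 in every library. The sums rose in the pull-downs for every marker list, so the rise is not read as enrichment of a cell type.

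Both groups of cell cycle genes were well expressed. In TPM, a share of all transcripts in a library that is scaled by transcript length, the median over replication genes was 15.9 and over mitosis genes 16.03, as means of the 4 inputs. PCNA was the highest of the replication genes, at 111.2 and 107.5 TPM in CA input and 93.0 and 109.2 in FA input (105.2 ± 8.29, SD, n = 4). MCM7 followed at 56.6 ± 4.63 TPM, with 53.3 and 58.7 in CA input and 52.4 and 62.2 in FA input. RRM1, the large subunit of ribonucleotide reductase, reached 51.5 ± 2.83 TPM, with 52.4 and 50.5 in CA input and 48.1 and 54.8 in FA input. The levels of MCM7 and RRM1 overlapped, and both lay below every value of PCNA. Cyclin E1 (CCNE1), which drives entry into S phase, was the lowest replication gene at 2.43 ± 0.628 TPM, and its highest library was CA input 1 (3.34, against 2.29, 2.14 and 1.93).

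Among the mitosis genes cyclin B1 led. CCNB1 stood at 96.8 and 89.4 TPM in CA input and 87.7 and 93.0 in FA input (91.7 ± 4.06, n = 4). UBE2C, the ubiquitin-conjugating enzyme of the anaphase-promoting complex, had 44.5 and 44.6 TPM in CA input and 49.1 and 51.2 in FA input (47.4 ± 3.33). NUSAP1, a spindle microtubule protein, had 40.3, 37.5, 36.5 and 36.4 TPM in the same order (37.7 ± 1.82). These 3 levels did not overlap. PLK1, the polo-like kinase, was lowest at 7.28 ± 0.630 TPM, with 8.22 in CA input 1 and 6.92 to 7.06 in the other inputs. Even the lowest member had at least 189 expected counts in every library for replication and 738 for mitosis.

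**Figure D1:**
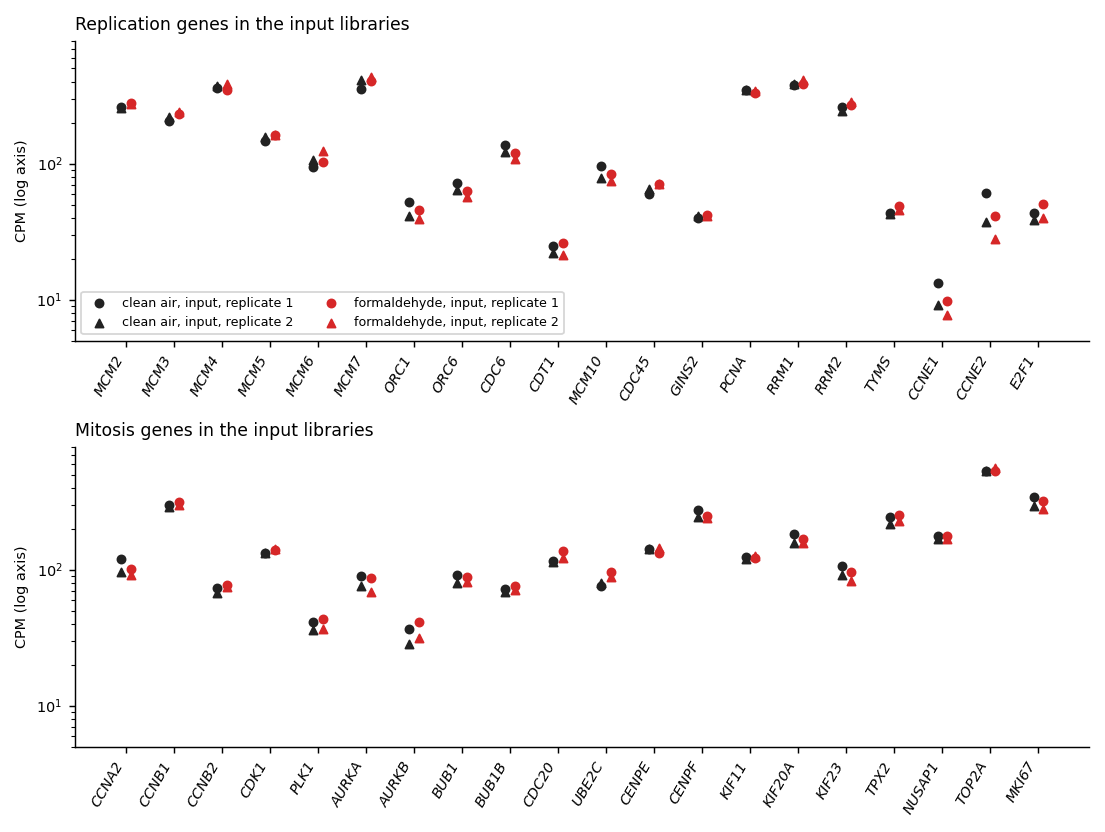
CPM (log axis; a gene's count as a share of the library's total after TMM scaling, with no correction for length) of the 20 replication genes (top) and 20 mitosis genes (bottom) in the 4 input libraries, with clean air in black, formaldehyde in red, replicate 1 as circles and replicate 2 as triangles. The points of most genes lie close together, CCNE1 is lowest with 7.66 to 13.2, and CCNE2 shows the widest spread, from 28.0 to 60.9.

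In the input RNA no shift of either programme was detectable without pairing the libraries. With a replicate block 1 of 40 members, CCNE2, was called lower with formaldehyde, a count near the all-gene share. Without the block, of the 40 members, 0 passed an adjusted p of 0.05 in the edgeR quasi-likelihood test, 1 (UBE2C) had an unadjusted p under 0.05, and DESeq2 gave 0 and 0. Among all genes edgeR called 0.00548% (1 of 18242), with 602 at an unadjusted p under 0.05. The replicate block added a term for the library number, shared by all 8 libraries with the pull-downs included. Input and pull-down of a pool came from split RNA, so the 8 libraries were not independent and adjusted p may be too small. With the block edgeR called 1 member lower and 0 higher (10 members at an unadjusted p under 0.05). Over all genes 2.06% were called lower and 0.115% higher, so the count of 1 is not read as a result about the members. The methods describe the 2 air streams as run in parallel, but do not say that a number marks an exposure day. The median log2 fold change, FA over CA, was 0.036 for replication, 0.027 for mitosis and 0.019 for all genes, and 12 of 20 members lay above 0 in each group against 53.4% of all genes. Over all alternatives, leaving out each library included, these medians ran from −0.004 to 0.043 and from −0.035 to 0.070. The smallest adjusted p among members was 0.948. The 95% intervals (unadjusted) had a median half-width of 0.241 log2 units for replication genes and 0.248 for mitosis genes. As factors these are 1.18 and 1.19. They do not mark what the test without pairing could call after adjustment over all genes. UBE2C at 0.244 and CCNE2 at −0.504 were not called by that test. In bulk RNA, fewer cells in a phase and less RNA per cell cannot be told apart.

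**Figure D2:**
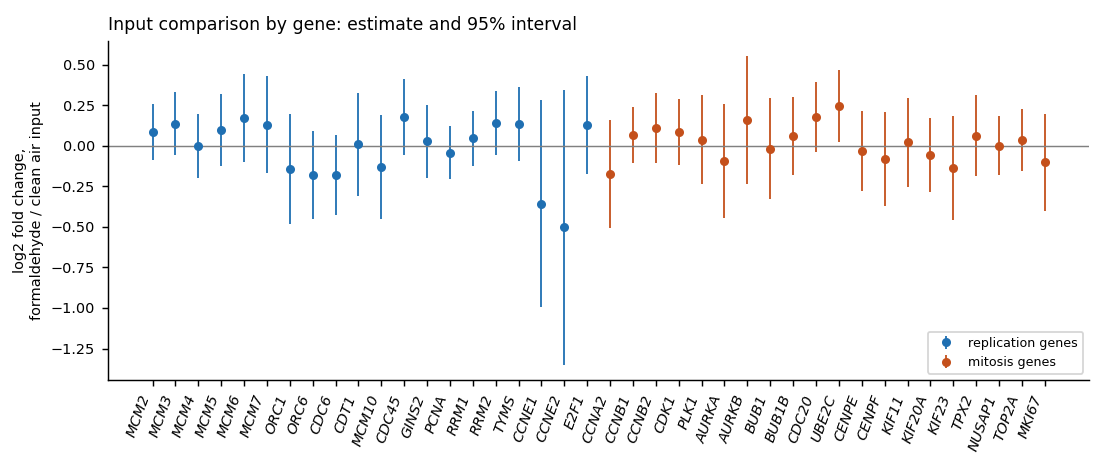
Log2 fold change of FA input over CA input (y axis) for each gene (x axis), with edgeR estimates as points and unadjusted 95% intervals as lines, replication genes in blue and mitosis genes in orange. The intervals of 20 of 20 replication genes and 19 of 20 mitosis genes include 0, and UBE2C is the exception.

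By role, the helicase genes lay slightly above 0 and the licensing genes slightly below. The 6 MCM genes had a median of 0.113 and the 4 licensing genes (ORC1, ORC6, CDC6, CDT1) of −0.16. CPM values, a gene's share of the TMM-scaled library total, of CDC6, which loads the MCM ring, were 135.9 and 122.6 in CA input and 120.1 and 108.2 in FA input, so the groups were separate by a small gap. MCM6 had 94.1 and 106.6 CPM in CA input and 102.0 and 123.7 in FA input, and the groups overlapped (log2 fold change 0.17, SE 0.120, from 0.0 without FA input 2 to 0.287 without FA input 1). CDC45, a helicase cofactor, had 60.04 and 64.9 CPM in CA input and 70.2 and 71.2 in FA input. Both formaldehyde values were the higher, yet the change of 0.18 (SE 0.104) did not pass the test.

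The largest differences belonged to the cyclins E. CCNE2 had 60.9 and 37.1 CPM in CA input and 41.3 and 28.0 in FA input, a log2 fold change of −0.50 (SE 0.364, 95% interval −1.35 to 0.343). CCNE1 had 13.2 and 9.10 CPM in CA input and 9.78 and 7.66 in FA input (−0.36, SE 0.280). The groups of both cyclins overlapped, since library 1 was above library 2 in each exposure, but the formaldehyde library was the lower one at each number (log2 ratios −0.560 and −0.407 for CCNE2, −0.429 and −0.248 for CCNE1). With the replicate block CCNE2 fell by 0.48 on the log2 scale (SE 0.085, edgeR adjusted p = 0.00717), and CCNE1 was not called (−0.34, adjusted p = 0.195). That fit also counted the pull-downs of the same RNA pools (CCNE2 54.9 and 31.5 CPM in CA pull-down, 39.8 and 24.4 in FA pull-down). Without the block, leaving out a library moved CCNE2 from −0.103 (without CA input 1) and −0.268 (FA input 2) to −0.820 (FA input 1) and −0.825 (CA input 2), and CCNE1 from −0.067 and −0.210 to −0.552 and −0.607 in the same order. E2F1, their transcription factor, had 43.5 and 38.6 CPM in CA input and 50.1 and 39.7 in FA input. The exons of CCNE2 share 1629 bases with INTS8 on the opposite strand, whose own counts were 133% of those of CCNE2, and the counting command in the study's methods set no strand option, so reads of that stretch are uncertain.

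Of the mitosis genes, UBE2C and CDC20, the activator of the anaphase-promoting complex, had the most positive values. UBE2C had 75.8 and 79.3 CPM in CA input and 95.4 and 88.2 in FA input, with both FA values above both CA values (0.24, SE 0.097, edgeR adjusted p = 0.948). CDC20 had 115.9 and 113.0 CPM in CA input and 137.8 and 121.1 in FA input, again without overlap (0.18, SE 0.096). Neither passed the test over all genes. Cyclin A2 (CCNA2) stood at the other end, with 119.1 and 96.4 CPM in CA input and 100.5 and 90.6 in FA input (−0.18, SE 0.147). KIF23, a kinesin of the central spindle, had 106.6 and 91.2 against 96.8 and 83.1 CPM (−0.14, SE 0.142). The values of both genes overlapped between exposures. Without CA input 1 CCNA2 stood at −0.014 and KIF23 at −0.020, without CA input 2 at −0.327 and −0.253, and without FA input 1 at −0.264 each. CDC20 stood at 0.068 without FA input 1, and KIF23 stood at −0.052 without FA input 2.

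Groups without overlap were 10 members higher and 3 lower with formaldehyde. They were MCM2, MCM3, MCM5, CDC45, RRM2, TYMS, CCNB2, CDK1, CDC20 and UBE2C above, and ORC6, CDC6 and PCNA below. Among all tested genes the shares were 18.1% higher and 15.8% lower. Within a group, library 2 was lower than library 1 for 18, 16, 18 and 20 of the 20 mitosis genes in CA input, FA input, CA pull-down and FA pull-down (medians −0.156, −0.107, −0.188 and −0.159 log2 units). For replication genes the counts were 12, 11, 10 and 11 of 20, with medians from −0.053 to −0.014. Over all genes these medians ran from −0.025 to −0.002. The spread between duplicates of mitosis genes was thus shared by most of that list and was larger than the median difference between exposures.

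A summary of the balance is the mean log2 CPM of the replication genes minus that of the mitosis genes. It was −0.356 and −0.318 in CA input and −0.384 and −0.348 in FA input, a mean difference of −0.03, with −0.028 and −0.031 for the libraries of the same number. The groups overlapped. The difference was −0.104 with medians in place of means and 0.006 on log2(TPM + 0.5), and it ran from −0.048 without CA input 1 to −0.01 without CA input 2 (−0.011 without FA input 1 and −0.047 without FA input 2). In the CA pull-down the value was −0.206 and −0.095, and in the FA pull-down −0.238 and −0.135, so every pull-down library lay above every input library. The pull-down minus input difference was 0.187 for CA (0.150 and 0.223 by library number) and 0.179 for FA (0.145 and 0.213). The difference between the lists itself was not tested.

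**Figure D3:**
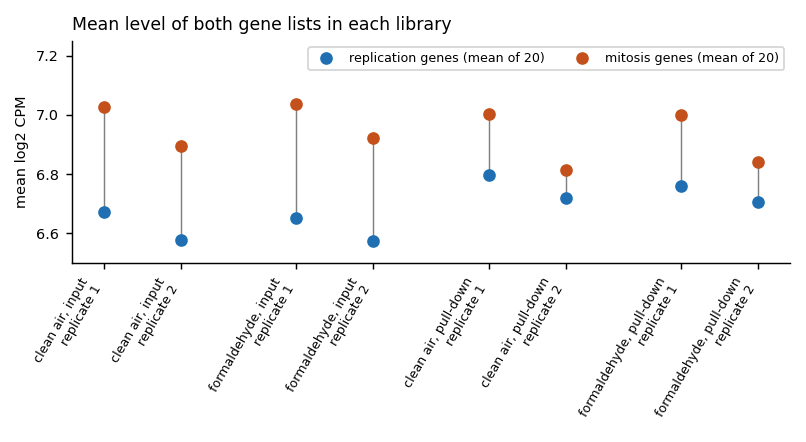
Mean log2 CPM (y axis) of the 20 replication genes and of the 20 mitosis genes in each of the 8 libraries, joined by a line per library, on an axis that does not start at 0. The mitosis mean is above the replication mean in every library, and the gap is smaller in the 4 pull-downs than in the 4 inputs.

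Other genes of the same pathways were not called without pairing, and a few were called lower with the replicate block. Of 48 further replication genes, 53 further mitosis genes and 22 genes of G1 control, 0 were called in FA input against CA input by edgeR (3, 0 and 2 at an unadjusted p under 0.05, medians 0.011, 0.016 and −0.03). With the replicate block 2, 1 and 2 of them were called lower and 0 higher. Over all genes that block called 2.06% lower and 0.115% higher. The genes were CDC25A (edgeR adjusted p = 4.67e-04), DBF4 (0.00802), HJURP (0.0282), E2F3 (0.00331) and E2F6 (0.0183). That fit also counted the pull-downs of the same RNA pools as separate libraries, so these adjusted p may be too small. CDC25A, the phosphatase that activates cyclin E–CDK2, had the most negative value, with 72.7 and 48.5 CPM in CA input and 43.97 and 31.0 in FA input (log2 fold change −0.70, SE 0.299, edgeR adjusted p = 0.948). DBF4, the regulator of the CDC7 kinase, was at −0.55. HJURP, the chaperone of the centromeric histone, was at −0.40 and CDCA2 at −0.33. The transcription factors E2F3 and E2F6 were at −0.65 each. CDKN1A, the CDK inhibitor p21 induced by p53, had 124.1 and 116.1 CPM in CA input and 111.1 and 106.2 in FA input (−0.15, not called). CCND1, cyclin D1, had 261.2 and 281.3 against 265.7 and 278.6 CPM, and its partner CDK4 had 143.3 and 149.6 against 155.9 and 167.8 CPM (0.15, not called).

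In the pull-down, MCM2 was higher in clean air and UBE2C lower in both exposures. With the pool block MCM2, MCM3, MCM5, MCM7 and the mitosis genes CDC20 and PLK1 were higher in both exposures. CENPE, CENPF and UBE2C were lower in both. In clean air, MCM2 rose and UBE2C fell in the edgeR test without pairing. These were 1 member higher where 0.225% of all genes were called higher, and 1 lower where 1.77% were called lower. With formaldehyde only UBE2C was called among members, lower (1.47% of all genes lower, 0.0384% higher). Input and pull-down of the same pool came from split RNA, and with the RNA pool as a block 10 members were higher and 5 lower in clean air (12.4% and 6.28% of all genes). With formaldehyde the blocked test gave 7 higher and 4 lower (6.28% and 4.85% of all genes). By group, replication gave 7 higher and 0 lower in clean air and 5 and 0 with formaldehyde, and mitosis gave 3 and 5, and 2 and 4. DESeq2 called MCM2 higher and CENPE and UBE2C lower in clean air, and CENPE and UBE2C lower with formaldehyde. Pull-down and input did not overlap for 12 members higher and 6 lower in clean air and 12 and 7 with formaldehyde, against 22.9% and 18.1%, and 18.9% and 18.5%, of all genes.

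The median log2 fold change, pull-down over input, was 0.144 for replication, −0.02 for mitosis and 0.016 for all genes in clean air, and 0.105, −0.03 and 0.003 with formaldehyde. Library size in place of TMM moved the all-gene median by 0.148 and 0.170, and the mitosis medians then changed sign to 0.125 and 0.140, with replication at 0.293 and 0.279. Calls over all genes then split 862 higher and 332 lower in clean air, against 41 and 322, and 373 and 248 with formaldehyde, against 7 and 268. Without single libraries the mitosis median also changed sign, to 0.067 (without CA input 1) and 0.077 (CA pull-down 2) in clean air and to 0.051 (FA input 1) and 0.092 (FA pull-down 2) with formaldehyde. The replication median in clean air kept its sign and fell to 0.054 without CA input 2 and 0.061 without CA pull-down 1. On the TPM scale, members whose CPM fell could rise. In clean air CDK1 had 30.1 and 28.6 TPM in input and 51.0 and 40.7 in pull-down. Directions are therefore given relative to the TMM centre of all 8 libraries. On that scale 16 of 20 replication genes and 9 of 20 mitosis genes lay above 0 in clean air, and 16 and 9 with formaldehyde, not all of them the same genes, against 52.4% and 50.7% of all genes.

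**Figure D4:**
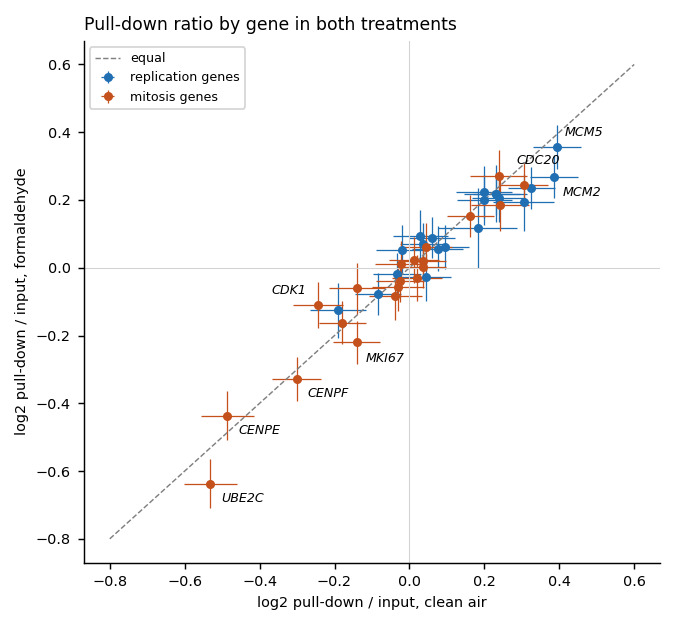
Log2 fold change of pull-down over input in clean air (x axis) and with formaldehyde (y axis), 1 point per gene, with SE bars from the edgeR fit with the RNA pool as a block and a dashed line where both are equal. MCM2 and MCM5 lie at the upper right, UBE2C, CENPE and CENPF at the lower left, and the points run along the line.

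UBE2C (chr20:45812576-45816957, plus strand, GRCh38) had the lowest pull-down value of all members. It had 75.8 and 79.3 CPM in CA input and 49.9 and 57.6 in CA pull-down, and 95.4 and 88.2 in FA input against 59.3 and 58.6 in FA pull-down. All pull-down values lay below all input values. The pull-down level was 0.693 of the input in clean air (95% interval 0.594 to 0.809, log2 −0.53, SE 0.098, edgeR adjusted p = 0.0291) and 0.642 with formaldehyde (0.550 to 0.750, log2 −0.64, SE 0.099, adjusted p = 0.0114). UBE2C was the single member whose leading isoform was under 1000 nt (850 nt). Among genes under that length edgeR called 10.6% lower in clean air and 8.87% with formaldehyde, against 0.313% and 0.249% of longer genes. The part of length in the UBE2C value was not tested. In clean air its call was lost without any single library except CA pull-down 2, with formaldehyde when any of the 4 formaldehyde libraries was left out.

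MCM2 (chr3:127598410-127622436, plus strand) had 262.1 and 256.3 CPM in CA input and 325.4 and 352.8 in CA pull-down, 1.31 times the input (95% interval 1.16 to 1.48, log2 0.39, SE 0.076, edgeR adjusted p = 0.0396). With formaldehyde it had 276.7 and 274.0 CPM in input and 326.3 and 337.0 in pull-down (0.27, adjusted p = 0.214, and 0.00237 with the pool block). The values did not overlap in either exposure, but without any single library the clean air call was lost (log2 0.33 to 0.45). MCM5 (chr22:35400134-35425431, plus strand) had 146.2 and 156.7 CPM in CA input against 181.2 and 218.1 in CA pull-down, and 161.6 and 162.2 in FA input against 203.2 and 211.2 in FA pull-down. Its log2 fold changes of 0.40 and 0.36 were called with the pool block (edgeR adjusted p = 9.24e-06 and 7.84e-05) and not without (0.0921 and 0.196).

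MCM7 and MCM3 followed the same direction. MCM7 had 355.7 and 408.8 CPM in CA input, 423.2 and 539.1 in CA pull-down, 405.1 and 431.3 in FA input and 453.8 and 532.5 in FA pull-down. With the pool block its adjusted p was 1.49e-04 in clean air and 0.0091 with formaldehyde (edgeR). MCM3 had 205.6 and 221.2 CPM in CA input, 239.0 and 262.6 in CA pull-down, 230.9 and 238.0 in FA input and 260.7 and 285.0 in FA pull-down (0.00556 and 0.0149). All pull-down values of both genes exceeded the input values of the same exposure. MCM4 and MCM6 were not called, with log2 fold changes from 0.05 to 0.09. Of the remaining replication genes, CDC45, CDT1 and ORC1 were called higher with the pool block in clean air and GINS2 with formaldehyde. CDT1 had 24.8 and 21.9 CPM in CA input, 28.8 and 28.9 in CA pull-down, 25.9 and 21.1 in FA input and 28.5 and 25.0 in FA pull-down, and only in clean air did its groups separate. PCNA stood at −0.08 in both exposures and RRM1 at 0.04 and 0.07, not called.

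Among mitosis genes, CENPE and CENPF were lower in the pull-down with the pool block. CENPE (chr4:103105349-103198445, minus strand), a kinetochore motor, had 142.8 and 140.7 CPM in CA input, 113.0 and 90.3 in CA pull-down, 133.4 and 143.4 in FA input and 105.5 and 99.2 in FA pull-down. The log2 fold changes of −0.48 and −0.44 were called with the pool block (edgeR adjusted p = 2.32e-06 and 2.28e-05), and not without in clean air (0.0697) or formaldehyde (0.142). CENPF (chr1:214603185-214664574, plus strand), a kinetochore-binding protein, had 273.9 and 243.1 CPM in CA input, 239.3 and 182.9 in CA pull-down, 248.5 and 240.3 in FA input and 206.7 and 183.4 in FA pull-down. Every pull-down value of both genes lay below the input values of its exposure. The CENPF fold changes of −0.29 and −0.33 were called with the block (5.48e-04 and 3.21e-04). Without the block, the clean air value was −0.499 without CA pull-down 1 and −0.111 without CA pull-down 2.

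CDK1 had 132.3 and 133.2 CPM in CA input, 119.0 and 105.4 in CA pull-down, 139.2 and 142.7 in FA input and 138.0 and 123.8 in FA pull-down. It was called lower in clean air with the block (adjusted p = 0.00727, edgeR) and not with formaldehyde (0.367). MKI67, the proliferation antigen Ki-67, had 344.2 and 295.5 CPM in CA input, 324.5 and 257.7 in CA pull-down, 318.8 and 277.4 in FA input and 268.8 and 242.3 in FA pull-down. Its groups overlapped in clean air and not with formaldehyde, where it was called with the block (0.0141, against 0.114 in clean air). CDC20 went the other way, with 115.9 and 113.0 CPM in CA input, 136.4 and 146.9 in CA pull-down, 137.8 and 121.1 in FA input and 161.8 and 144.5 in FA pull-down. Its groups were separate in both exposures and it was called higher with the block (4.46e-04 and 0.00843), as was PLK1 (0.0202 and 0.0143). The mitosis list thus held genes called in both directions, whereas each replication gene called was higher. In the test without pairing, leaving out 1 library moved several of these values by over 1.5 times. In clean air, without CA pull-down 2, MCM7 stood at 0.147, MCM5 at 0.259 and CDC45 at 0.137, and CDK1 stood at −0.157 and TOP2A at −0.091 (−0.268 without CA pull-down 1). ORC1 ran from 0.022 without CA input 2 and 0.051 without CA pull-down 1 to 0.331 without CA pull-down 2 and 0.380 without CA input 1. AURKB stood at 0.052 without CA input 2, 0.135 without CA pull-down 1 and 0.434 without CA input 1, and PLK1 at 0.133 without CA input 2. With formaldehyde, MCM7 stood at 0.137 without FA pull-down 2, CDC20 at 0.159 without FA pull-down 1 and PLK1 at 0.171 without FA input 2, and MKI67 stood at −0.109 without FA input 1 and −0.129 without FA pull-down 2.

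A change of these pull-down differences with formaldehyde was not detectable. The difference of the fold changes, FA minus CA, was called for 0 of 40 members by edgeR (0 at an unadjusted p under 0.05), 0 with the pool block and 0 by DESeq2, where 0.0% of all genes (185 unadjusted) and 0.0767% with the block were called. Values ran from −0.119 for MCM2 (SE 0.108, 95% interval −0.363 to 0.125) to 0.135 for CDK1 (SE 0.128, −0.155 to 0.425). CDT1 stood at −0.12 (SE 0.198), UBE2C at −0.11 (SE 0.139, −0.424 to 0.204) and MKI67 at −0.09 (SE 0.186). ORC6 and CCNE2 stood at 0.070 each and KIF11, a spindle kinesin, at 0.077. ORC6 had 71.9 and 63.7 CPM in CA input, 73.0 and 60.9 in CA pull-down, 62.9 and 56.7 in FA input and 65.2 and 58.9 in FA pull-down. KIF11 had 123.3 and 119.9, 124.4 and 97.3, 121.0 and 125.7, and 127.2 and 110.2 CPM in that order. Inputs and pull-downs of both genes overlapped in each exposure. The median half-width of the 95% intervals was 0.350 log2 units, and 0.192 with the block.

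The pull-down values rose with the guanine share of the transcripts. Guanine was the only base counted, so it was not separated from GC content, and a cause was not tested. The share of guanine in the leading isoform had a median of 25.3% over 19 replication genes and 22.9% over 20 mitosis genes, against 24.7% over all genes. E2F1 (30.9%), CDT1 (30.6%), MCM5 (29.9%), MCM2 (29.8%) and MCM7 (29.4%) were rich in guanine, and CCNE2 (17.8%), CDK1 (19.1%) and CENPE (19.7%) were poor. The extremes, E2F1 (log2 fold changes 0.23 and 0.21) and CCNE2 (−0.18 and −0.11), were not called in the pull-down with the block (edgeR adjusted p = 0.0506 and 0.0978, and 0.0732 and 0.394). To show the letters behind these shares, the 120 coding bases with the most guanines are given for 4 genes that differ in the pull-down. UBE2C, which lies below the all-gene line of guanine share, is not among these genes. CENPE and CENPF also lay below that line in both exposures, and MCM2 and MCM5 lay above it. CENPE stood at −0.48 and −0.44, where all genes of 18 to 20% guanine had medians of −0.167 and −0.119. The stretches run 5′ to 3′ on the coding strand, with guanine in capitals (GRCh38). They are CENPE at chr4:103183282-103194289 (minus strand, across introns that are left out), CENPF at chr1:214645842-214645961, MCM2 at chr3:127604641-127604760 and MCM5 at chr22:35410830-35412548 (across an intron that is left out), these 3 on the plus strand.
CENPE: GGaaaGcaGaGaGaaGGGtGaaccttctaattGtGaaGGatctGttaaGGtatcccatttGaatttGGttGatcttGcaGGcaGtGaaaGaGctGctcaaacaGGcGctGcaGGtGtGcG
CENPF: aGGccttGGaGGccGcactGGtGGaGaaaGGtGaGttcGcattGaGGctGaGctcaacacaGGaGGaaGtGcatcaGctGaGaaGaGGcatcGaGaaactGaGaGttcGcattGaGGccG
MCM2: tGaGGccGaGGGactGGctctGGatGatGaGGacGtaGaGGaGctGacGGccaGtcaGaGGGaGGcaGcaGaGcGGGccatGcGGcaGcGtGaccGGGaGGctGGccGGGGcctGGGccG
MCM5: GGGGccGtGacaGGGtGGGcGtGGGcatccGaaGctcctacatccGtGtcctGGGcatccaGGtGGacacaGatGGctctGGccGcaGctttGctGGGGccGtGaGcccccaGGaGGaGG
The stretches hold 38, 44, 57 and 48 guanines, and the whole coding sequences 20.03%, 23.6%, 30.2% and 30.2%. Over the 39 members with a value, Spearman's rho of guanine share and pull-down log2 fold change was 0.847 in clean air and 0.824 with formaldehyde, against 0.547 and 0.413 over 16860 genes. Within the groups it was 0.879 and 0.849 over 19 replication genes and 0.617 and 0.534 over 20 mitosis genes. Points of 1 exposure share the same 4 libraries, so these values describe them and carry no test. The 16860 genes include some with lower counts than any member and were not matched to the members. The values of rho are thus not ranked between these sets.

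**Figure D5:**
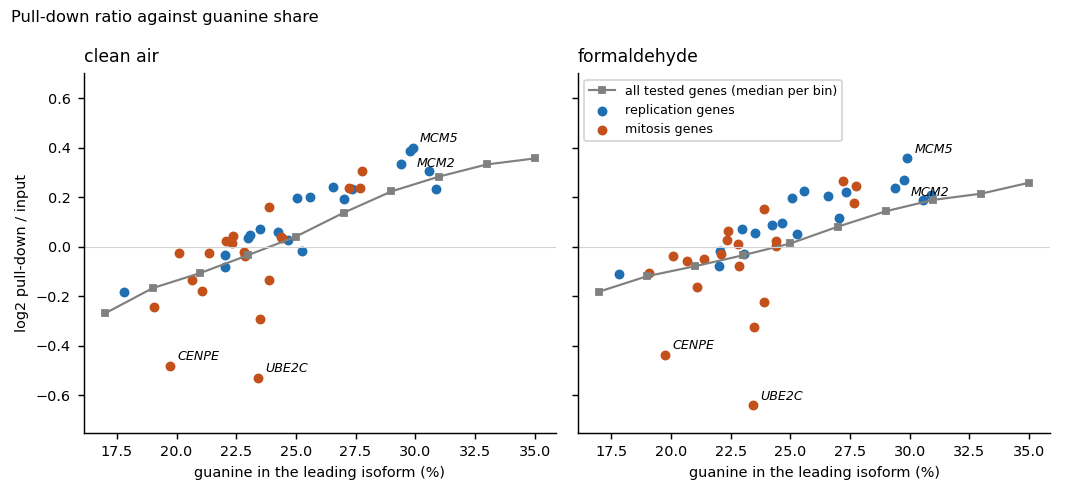
Pull-down over input log2 fold change against the guanine share of the leading isoform for the 39 members with a value, in clean air (left) and with formaldehyde (right), with the median of all genes in bins of guanine share as a line. Members rich in guanine such as MCM2 and MCM5 lie high, and UBE2C and CENPE lie below the line in both panels.

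Relative to the all-gene median of genes with the same guanine share, the gap between the lists was smaller. The replication genes lay at a median of 0.08 in clean air and 0.083 with formaldehyde, with 15 and 17 of 19 above the bin median. The mitosis genes lay at 0.004 and 0.018, with 10 and 13 of 20 above it. The part of guanine content in the list difference was not tested further.

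Of the further replication, mitosis and G1 genes, 5 had a leading isoform under 1000 nt, and 3 of these were called lower in each exposure without pairing. Among all genes under that length 10.6% were called lower in clean air and 8.87% with formaldehyde. CKS2, a CDK subunit with a leading isoform of 613 nt, fell by 1.55 on the log2 scale in clean air and by 1.30 with formaldehyde (edgeR adjusted p = 9.17e-05 and 2.57e-04). PTTG1, securin (753 nt), fell by 0.91 and 0.84 (0.00126 and 0.0026), and RPA3, the small subunit of the single-strand binding protein (847 nt), fell by 1.04 and 0.75 (3.59e-04 and 0.00294). The other two, TROAP (−0.33 and −0.32) and CDCA3 (−0.21 and −0.25), were not called. CKS2, PTTG1 and RPA3 were the calls without pairing among the further replication and mitosis genes in clean air, and 0 of 22 G1 genes were called (5 unadjusted). With the pool block, the further replication genes gave 9 higher and 4 lower in clean air and 5 and 2 with formaldehyde, and the further mitosis genes 5 and 9, and 2 and 7. The G1 genes gave 6 and 1, and 4 and 0. Over all genes the pool block called 12.4% higher and 6.28% lower in clean air, and 6.28% and 4.85% with formaldehyde.

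The gene totals rested on few isoforms. In 37 of 40 members the same isoform led in all 8 libraries, and 39 leading isoforms were protein coding by the annotation. The leading isoform held a median of 85.4% of the gene's expected counts in the inputs, from 23.4% for AURKA to 100%. It held over 90% in 16 members, but 46.3% for MCM5 and 59.6% for MCM7. The guanine shares describe that isoform alone. Beside CCNE2, TYMS (thymidylate synthase) shares 967 exon bases with ENOSF1 on the opposite strand, whose counts were 122% of its own. CCNA2 shares 254 bases with EXOSC9 (60.8%) and NUSAP1 shares 195 bases on the same strand with OIP5-AS1 (61.9%), so their levels carry the same uncertainty.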

How the data were processed

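RNA of BEAS-2B cells was sequenced as input and after 8-oxoG immunoprecipitation (Ribo-Zero depletion, NEBNext Small RNA kit). Reads were trimmed with cutadapt, checked with FastQC, aligned with STAR 2.6.0a to GRCh38 and quantified with RSEM 1.2.25, per the submitters' processing notes. The authors deposited, for each library, an expected count and a TPM value per isoform (a share of the library's transcripts, scaled by length). Their 3 DESeq2 tables hold the authors' own comparisons and were not used here. The labels and the methods name different antibody clones, so the clone is not certain.

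Expected counts were summed by gene and rounded. Genes with at least 10 counts in at least 2 libraries were tested with edgeR 4.0.16 (quasi-likelihood, robust, TMM, R 4.3.3) on all 8 libraries in 4 groups of 2, with Benjamini-Hochberg adjustment over 18242 genes and a call at an adjusted p under 0.05. Scripts were tested on simulated data. DESeq2 1.42.0, other scalings, filters, blocks and leaving out each library were alternatives. Tables were handled with pandas 2.3.3 and scipy 1.17.1 in Python 3.11.15, and plots drawn with matplotlib 3.10.9. Libraries were numbered 1 and 2 in accession order. Inputs and pull-downs of the same treatment and file number came from a split RNA pool by the methods. The deviations of same-numbered libraries from their group means correlated at 0.380 (CA) and 0.246 (FA) within a pool. Across treatments they correlated at 0.203 to 0.283, so this check did not set the pools apart. The pool given by the methods was the block in the pull-down comparisons.

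The 40 members and the companion lists were chosen with earlier results of these data known. Values per library are given for members called in any contrast (up to 12), the 3 highest and the lowest input levels per group, and the extremes of the input comparison and of the interaction. Values of CDC6 and E2F1 in the input comparison were added after they were seen. Companion genes are named where called, or otherwise the 2 with the largest difference per list, plus CDKN1A, CCND1 and CDK4. Guanine shares came from GENCODE 44 transcripts with the leading isoform's identifier and a length within 25% (92.4% of tested genes, 39 of 40 members). Promoters came from RefSeq. Depth is 16883500 to 45144392 expected counts, which sets the precision together with the 2 libraries per group.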

Additional observations from a re-analysis of the deposited data

Results flagged for a closer look

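For 2 members every RNA pool moved one way in clean air and the other with formaldehyde in the pull-down comparison. The share of all genes with this pattern was not counted and the ratios were small, so it is not read as a result about these members. MCM10, a replication initiation factor, had pull-down over input log2 ratios of 0.074 and 0.011 in clean air and −0.050 and −0.008 with formaldehyde, and the difference of the fold changes was −0.076. AURKA, a mitotic kinase, had −0.012 and −0.035 in clean air and 0.001 and 0.021 with formaldehyde, and the difference was 0.032. The edgeR interaction test passed for neither (adjusted p of 1).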

How the results depend on the processing

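The limits are the 2 libraries per group, an 8-library spread shared by all groups, bulk RNA and duplicates whose mitosis genes differed together. The difference between FA input and CA input was called for 0 members in all alternatives run except the replicate block. Over all comparisons, 42 counts of called members were within 1.5 times the reported one, 13 were higher and 14 lower. Leaving out a library can leave a group with 1, which is then assumed to vary like the others. Causes of the shifts were not tested, though a library size in place of TMM moved the all-gene centre of the pull-down comparisons.

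For FA input against CA input, all genes called (1) became 3 with DESeq2 on 8 or 4 libraries, 45 without a filter, 0 with edgeR on the 4 libraries or with length offsets, and 0 to 1 without single libraries. The replication minus mitosis balance (−0.029) became −0.104 with medians and 0.006 on log2(TPM + 0.5).

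For the CA pull-down, all genes called became 1194 with library size, 671 without a filter, and 208 to 327 without single libraries. Members called (2) became 5 with library size, 1 with RLE factors, 1 with DESeq2 on 4 libraries, 4 without a filter, 0 with edgeR on 4 libraries, and 0 to 2 without single libraries. For the FA pull-down, all genes called became 621 with library size, 530 without a filter and 122 to 279 without single libraries, and members called (1) became 4, 2 with DESeq2 on 8 or 4 libraries, 2 without a filter and 0 to 2 without single libraries. For the difference of the pull-downs, all genes called (0) became 3 with DESeq2 on 8 libraries, 20 without a filter and 0 to 5 without single libraries. Its uncalled values changed sign without single libraries for CCNE2 (−0.333 to 0.526), ORC6 (−0.054 to 0.207), MKI67 (−0.243 to 0.089), CDT1 (−0.22 to 0.067) and KIF11 (−0.089 to 0.266).

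The RNA pool block raised all genes called to 3403, 2029 and 14 for the CA pull-down, the FA pull-down and their difference, and members to 15 and 11. The replicate block joined libraries of different treatments with the same number, inputs and pull-downs alike. The inputs' deviations from their group means correlated at 0.283 by number, but there are 2 numbers and no source ties a number to an exposure day. It raised all genes called to 396 for the inputs, 2111 and 1071 for the pull-downs and 4 for the difference. Members called with it were 1, 10 and 5. The member of the inputs was CCNE2 (log2 −0.48, edgeR adjusted p = 0.00717).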
